A study of Rattus norvegicus with 6 samples.

Results

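Tight junctions seal the space between neighbouring epithelial cells and separate the apical from the basolateral membrane. The genes described here are 9 that build this seal or set the cell's polarity: Tjp1, F11r, Ocln, Cldn1, Cldn3, Cldn4, Cldn6, Cldn7 and Crb3. They were chosen by gene symbol, with earlier results of these data known. All 9 of them, among 14217 genes, were read on the arrays, by 16 of the 20826 probe sets that carried a single symbol. Each gene is given by the probe set that read highest on average, its main probe set, and the others are given beside it.

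Claudins are small membrane proteins whose extracellular loops meet between cells and decide which ions and solutes pass. Occludin and the junctional adhesion molecule F11r, also called JAM-A, are further membrane proteins of the junction, and the scaffold ZO-1, the product of Tjp1, ties them to the actin cytoskeleton. Crumbs proteins such as Crb3 mark the apical membrane and act with the Par and Scribble complexes to place the junction. In kidney tubules, claudins differ from segment to segment, and loss of tight junctions is an early step when epithelial cells take on a mesenchymal form.

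The 6 Affymetrix rat arrays held RNA of NRK-52E, a long-established rat cell line derived from kidney tubule epithelium. For 3 arrays the cells had received lentiviral shRNA against AMPKα2, 1 of the catalytic subunits of the energy sensor AMPK, and for 3 arrays a control lentivirus. The cells of both groups had been given recombinant TGF-β1, which pushes epithelial cells towards a mesenchymal form, at 10 ng/mL over 24 h. None of the 6 arrays was without TGF-β1. Within a group the 3 arrays are labelled as biological replicates, but the labels do not say whether they came from separate infections, so p-values measure the spread between these arrays. Whether a lower value reflects less RNA per cell or fewer cells that express the gene cannot be told apart in bulk RNA.

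The values are log2 expression as deposited, and differences are AMPKα2 shRNA minus control. On the AMPKα2 shRNA arrays the values had a narrower spread, with an SD over probe sets of 1.76 to 1.82, against 2.17 to 2.19 on the control arrays. In limma, 12095 of 14217 genes (85.1%) passed an adjusted p of 0.05, 43.6% higher and 41.5% lower with the AMPKα2 hairpin, and the groups did not overlap in 87.1% of genes. Prkaa2, which encodes AMPKα2, had 6.64, 6.76 and 6.49 on the AMPKα2 shRNA arrays, against 6.83, 6.79 and 6.89 on the control arrays, and its log2 change of -0.21 did not pass (limma, adjusted p = 0.0552). Its groups did not overlap, as in 87.1% of genes, but the target's own values do not show a knockdown by this test. The groups are called as the labels call them. Of 15 measured tubule and epithelial markers, 1 lay above the median control level of all genes. Of the 15, 12 rose and 1 fell, with a median change of 0.52. The marker above that median, and the one that fell, was Krt8, at 12.24 on the AMPKα2 shRNA arrays, against 12.49 on the control arrays. Cdh1 (4.74, against 4.31) and Epcam (3.47, against 2.97), defining genes of adhesive epithelium, lay among the low values of the arrays in both groups.

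Because low values were raised and high values lowered across the arrays, each change is set beside genes of like control level, that is, the other genes whose control mean lay within 0.25 of the gene's own. Among genes with a control level from 4 to 5 the median log2 change was 0.79, and among those from 10 to 11 it was -0.84. Besides the deposited values, 3 other scalings were tried: quantile normalization, cyclic loess and median centring of each array, called the quantile, loess and centred values. The percentile given for a gene is the share of its like-level genes with a lower change, and it is a description with no test.

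Across the 9 genes, 8 passed the test, 6 higher and 2 lower (limma, adjusted over all genes), in a table where 85.1% of genes passed. The scaffold gene Tjp1 and the adhesion gene F11r, which had the highest values, fell. At lower values 4 of the 5 claudins and Crb3 rose, and Cldn4 did not pass. Ocln, the gene of occludin, is counted among the higher genes by its main probe set, and its other probe set fell. The median change of the 9 genes was 0.72, against 0.048 over all genes, and the median difference from genes of like level was -0.00088. Change and control level were negatively correlated across the 9 genes (Pearson r of -0.91, Spearman rho of -0.43), as across all 14217 genes (Pearson r of -0.63, Spearman rho of -0.67). Among the 9, Tjp1 and F11r lay far from the other genes in both level and change, which weighs on the Pearson value. The control mean is also subtracted within each change, which by itself pulls such a correlation below 0. These are correlations across genes of the same arrays, which are not independent, and they carry no test.

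**Figure D1:**
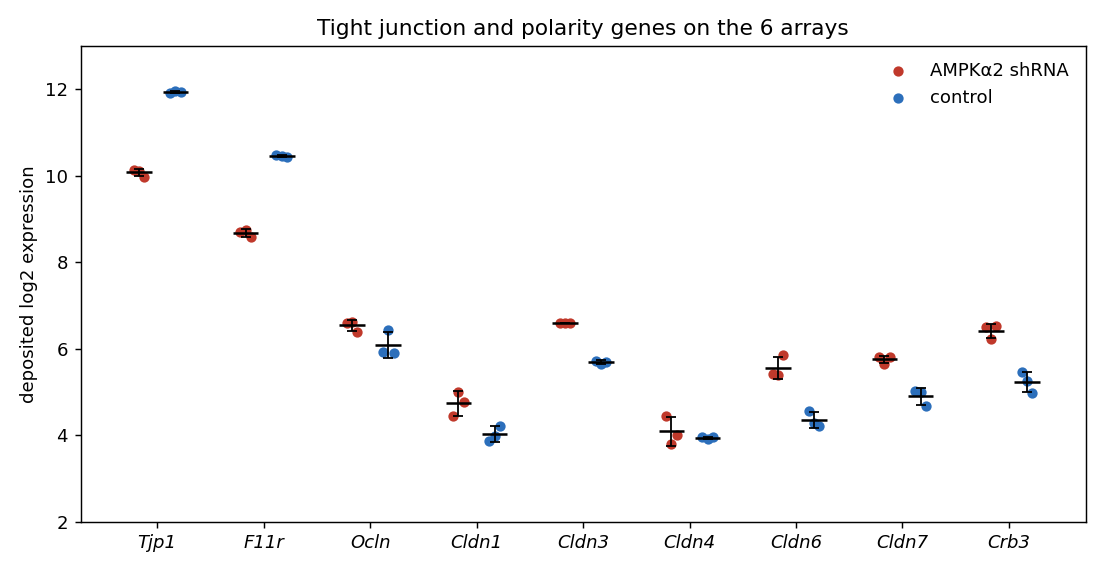
Deposited log2 expression (vertical axis) of the 9 tight junction and polarity genes on each AMPKα2 shRNA array (red, left of each pair) and each control array (blue). Black lines are means and bars are SD over 3 arrays. Tjp1 and F11r are lower on every AMPKα2 shRNA array, while the groups of Ocln and Cldn4 overlap.

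Tjp1 encodes ZO-1, the cytoplasmic scaffold that binds claudins through its PDZ domains. Its main probe set had log2 values of 10.14, 10.11 and 9.97 on the AMPKα2 shRNA arrays, against 11.92, 11.95 and 11.93 on the control arrays. Every AMPKα2 shRNA array lay far below every control array, and the control arrays were nearly equal. Tjp1 fell by 1.86 in log2 units (SE 0.083, limma, adjusted p = 1.34e-08), a 3.63-fold lower value with the AMPKα2 hairpin. Its 92 like-level genes had a median change of -0.56, so Tjp1 stood at -1.30 from them, at percentile 8.70. The other probe set read much lower values of 5.07, 4.97 and 4.62 on the AMPKα2 shRNA arrays, against 5.14, 5.20 and 5.30 on the control arrays. Here, too, the groups did not overlap. Its log2 change was -0.33 (SE 0.12, limma over all probe sets, adjusted p = 0.0261), at a control level where the median change was 0.83, which put it at -1.16 from its like-level genes, at percentile 4.25. This smaller change did not pass without AMPKα2 shRNA replicate 3 (-0.19) or without control replicate 2 (-0.33) or 3 (-0.28). Both probe sets of Tjp1 thus moved below genes of their level, by similar amounts, although their changes as deposited differed. The difference between them, main minus other within each array, changed by -1.53 (exact 2-sided permutation test, p = 0.1).

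F11r encodes JAM-A, an immunoglobulin-like adhesion molecule that recruits Par3 to the young junction. It had log2 values of 8.71, 8.74 and 8.57 on the AMPKα2 shRNA arrays, against 10.48, 10.46 and 10.43 on the control arrays. The groups did not overlap, and the gap was many times the spread within either. F11r fell by 1.79 (SE 0.082, limma, adjusted p = 1.66e-08), a 3.45-fold lower value. Its 430 like-level genes had a median of -0.85, with quartiles of -1.50 and -0.31, and F11r lay at -0.93 from that median, at percentile 13.3. In the range of control levels from F11r to Tjp1, 76.8% of 671 genes fell and 8.20% rose.

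Tjp1 and F11r remained lower in each scaling tried. Tjp1 changed by -1.47 in the quantile values, -1.31 in the loess values and -2.07 in the centred values. F11r changed by -1.08 in the quantile values and -1.09 in the loess values, and all of these passed, as did its fall in the centred values. From like-level genes, Tjp1 stood at -1.16 in the quantile and -1.25 in the loess values, and F11r at -0.92 and -0.91. The 3 genes whose values followed Tjp1 most closely over the 6 arrays were Lamtor3, Rtn4 and Paip1, with Pearson r of at least 0.99, a value that 2275 genes in all exceeded.

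Ocln encodes occludin, a membrane protein with 4 spans that strengthens the seal. Its main probe set had 6.59, 6.63 and 6.39 on the AMPKα2 shRNA arrays, against 5.93, 6.42 and 5.89 on the control arrays. The groups overlapped, since control replicate 2 lay above AMPKα2 shRNA replicate 3. The log2 change of 0.46 (SE 0.14) passed (limma, adjusted p = 0.00995) and stood at -0.094 from the median of its 876 like-level genes. It did not pass in the loess (0.26) or centred (0.24) values. The other probe set had 5.31, 5.44 and 5.42 on the AMPKα2 shRNA arrays, against 6.23, 6.16 and 6.21 on the control arrays. Its groups were far apart in the opposite direction, with a log2 change of -0.81 (SE 0.09, limma over all probe sets, adjusted p = 5.85e-06), at -1.25 from like-level genes and percentile 9.08. The difference between the probe sets, main minus other within each array, was 1.28, 1.19 and 0.97 on the AMPKα2 shRNA arrays, against -0.31, 0.26 and -0.31 on the control arrays. These differences did not overlap between the groups. An exact 2-sided permutation test gave p = 0.1, as it did for Tjp1, the smallest that 3 arrays against 3 allow. With the mean of its probe sets the change of Ocln was -0.18, which did not pass, and with the more variable probe set it was -0.81, so no direction is given for occludin as a gene.

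**Figure D2:**
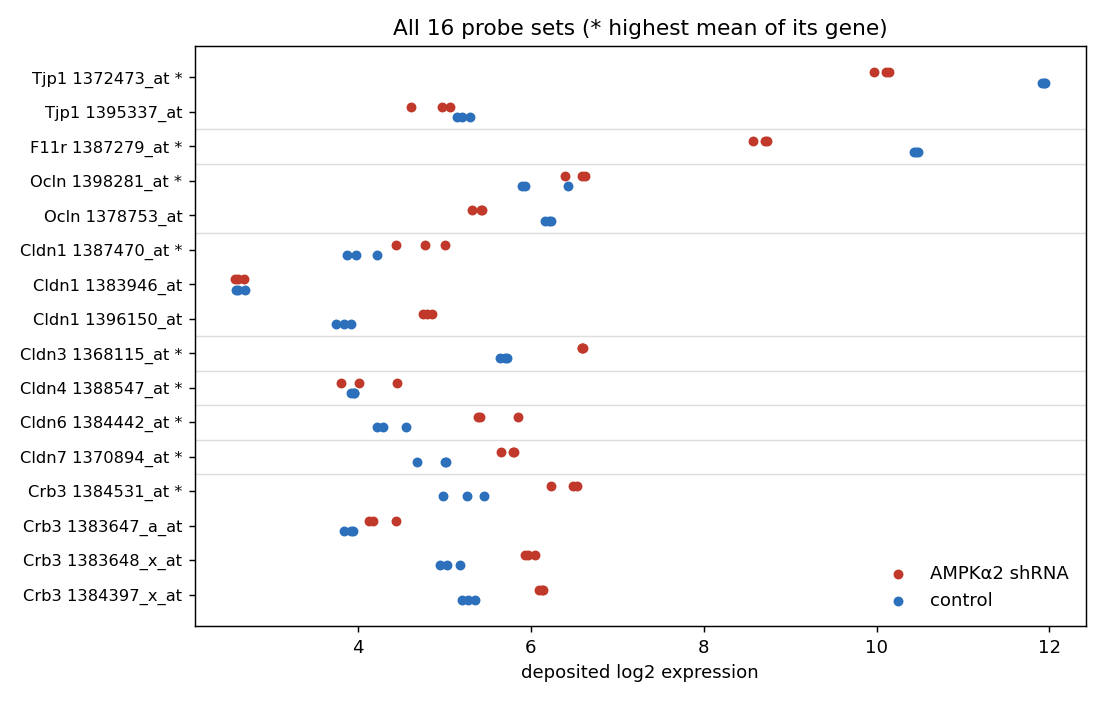
Deposited log2 expression (horizontal axis) of all 16 probe sets of the 9 genes on the AMPKα2 shRNA arrays (red, upper row of each pair) and the control arrays (blue, lower row). The probe sets of Ocln move in opposite directions, and those of Crb3 all lie higher on the AMPKα2 shRNA arrays.

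The 5 claudins all had control levels under 6, in the lower part of the array's range. Cldn3 and Cldn7 had the steadiest rises. Cldn3 had 6.60 on each of the 3 AMPKα2 shRNA arrays, against 5.72, 5.64 and 5.70 on the control arrays. It rose by 0.91 (SE 0.077, limma, adjusted p = 1.14e-06), or 1.88-fold, and lay 0.12 above the median of like-level genes at percentile 59.0. Cldn7 had 5.80, 5.65 and 5.80 on the AMPKα2 shRNA arrays, against 5.02, 5.00 and 4.68 on the control arrays. The groups of both genes were separate, with all AMPKα2 shRNA arrays higher. Cldn7 rose by 0.85 (SE 0.11, limma, adjusted p = 2.23e-05), and lay 0.022 above the median of like-level genes, at percentile 52.3. In the loess values Cldn3 rose by 0.62 and Cldn7 by 0.27, and both passed. Claudin-3 is a sealing claudin, and claudin-7 is also found along the basolateral membrane of distal nephron cells.

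Cldn6, a claudin of embryonic epithelia, had 5.41, 5.39 and 5.85 on the AMPKα2 shRNA arrays, against 4.55, 4.29 and 4.21 on the control arrays. All AMPKα2 shRNA arrays were higher, and replicate 3 was the highest of them. Cldn6 rose by 1.20 (SE 0.14, limma, adjusted p = 1.02e-05). Its control values lie under 5, where the array may hold little signal, so no fold is given. It lay 0.42 above its 960 like-level genes at percentile 90.0, and 0.44 and 0.39 above them in the quantile and loess values. Its rise was 0.77 in the quantile and 0.595 in the loess values.

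Cldn1 encodes a claudin needed for the barrier of skin and present in the parietal cells of the kidney's filter. It had 4.44, 5.00 and 4.77 on the AMPKα2 shRNA arrays, against 3.87, 3.97 and 4.22 on the control arrays. The groups were separate, but the lowest AMPKα2 shRNA array lay near the highest control array. Cldn1 rose by 0.72 (SE 0.14, limma, adjusted p = 0.000695), the same as its like-level genes, whose median was also 0.72. In the quantile (0.26) and loess (0.20) values it did not pass. A further probe set, at a control level of 3.83, rose by 0.97 (SE 0.09), and by 0.51 and 0.47 in those values, which passed. The last probe set of Cldn1 stayed between 2.58 and 2.69 on all 6 arrays, near the lowest deposited values, with a log2 change of -0.0021 that did not pass.

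Cldn4, a claudin of the collecting duct that forms a pathway for chloride in mouse kidney cells, was the member that did not pass. It had 4.45, 3.80 and 4.004 on the AMPKα2 shRNA arrays, against 3.95, 3.92 and 3.95 on the control arrays. The AMPKα2 shRNA arrays lay on both sides of the tightly grouped control arrays. Its log2 change was 0.15 (SE 0.14, limma, adjusted p = 0.348), where its 827 like-level genes had a median change of 0.70. Changes of -0.28 in the quantile and -0.30 in the loess values did not pass either. Cldn4 thus stood at -0.55 from them, at percentile 4.47, and at -0.53 and -0.49 from them in the quantile and loess values. Without AMPKα2 shRNA replicate 1, its highest array, the change was -0.037 and did not pass.

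Crb3, which encodes the Crumbs protein that is widespread in epithelia and anchors Pals1 and Par6 at the apical membrane, rose. Its main probe set had 6.49, 6.23 and 6.53 on the AMPKα2 shRNA arrays, against 5.45, 5.26 and 4.98 on the control arrays. The lowest AMPKα2 shRNA array stood clear of the highest control array. Crb3 rose by 1.18 (SE 0.13, limma, adjusted p = 7.16e-06), or 2.27-fold, and lay 0.36 above its 1013 like-level genes at percentile 82.7. In the quantile and loess values Crb3 rose by 0.99 and 0.74. Further probe sets, with control levels of 5.05, 5.28 and 3.90, rose by 0.93, 0.84 and 0.34. The last of these had -0.092, -0.11 and 0.13 in the quantile, loess and centred values, none of which passed. The names of the first 2 of these mark Affymetrix designs whose probes may bind other transcripts.

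Over all 16 probe sets, 10 rose, 4 fell and 2 did not pass as deposited, in a table where 81.9% of probe sets passed. In the loess values 7 of them rose, 4 fell and 5 did not pass. Of the 9 genes, 4 rose (Cldn3, Cldn6, Cldn7 and Crb3) and 2 fell (Tjp1 and F11r) in all 4 scalings. The share of all genes that did so was not counted. In the quantile values 5 of the 9 genes rose and 2 fell, where 72.7% of all genes passed, 44% higher and 28.7% lower. In the loess values 4 rose and 2 fell, where 71.8% passed, 40.2% higher and 31.5% lower. In the centred values 5 rose and 2 fell, where 83.1% passed, 35% higher and 48.2% lower. Over all genes the median change, 0.048 as deposited, was 0.16 in the quantile, 0.093 in the loess and -0.17 in the centred values.

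**Figure D3:**
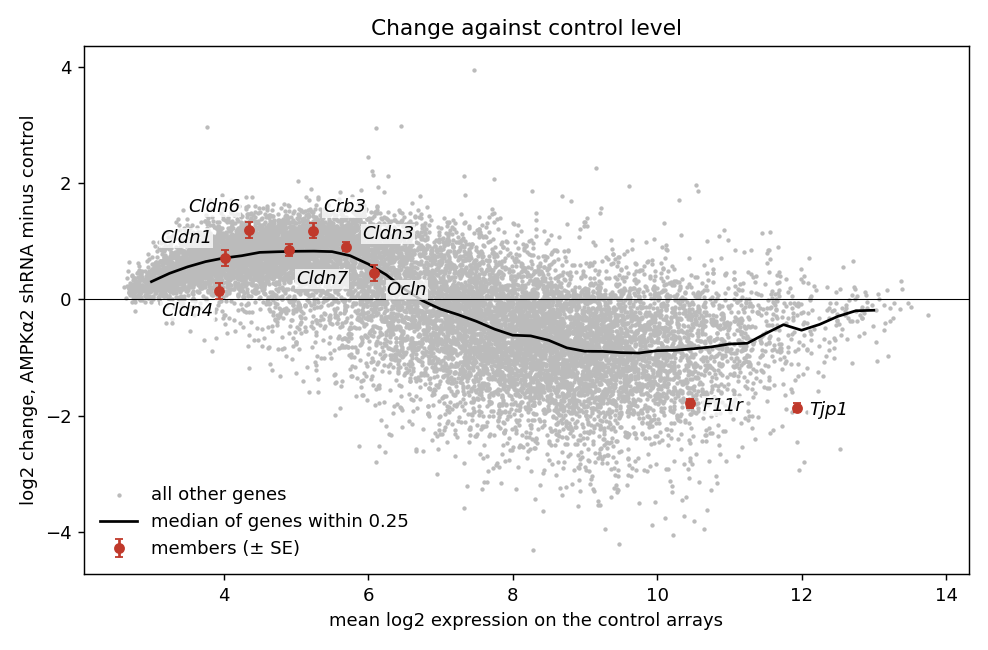
Log2 change (vertical axis, AMPKα2 shRNA minus control) against the mean control log2 expression (horizontal axis) for all other genes (grey) and the 9 tight junction and polarity genes (red, ± SE). The black line is the median of genes within 0.25 of each level. Cldn1, Cldn3, Cldn7 and Ocln lie near the line, Cldn6 and Crb3 above it, and Cldn4, F11r and Tjp1 below it.

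The rise of low genes was not limited to epithelial ones. In the range of control levels spanned by the 5 claudins and Crb3, 3444 genes were measured, of which 87.6% rose and 3.95% fell, with a median change of 0.80. Some markers of cell types that a tubule line should not hold rose as well. All 4 leukocyte markers, whose control levels lay in the same range, rose, with a median change of 0.95. Among them Ptprc, the pan-leukocyte gene, had 5.07 on the AMPKα2 shRNA arrays, against 4.14 on the control arrays, and Cd3e, of T cells, had 5.87, against 4.75. Of 4 endothelial markers 3 rose, with a median of 0.78, and Tek (0.29) did not pass. Of 2 podocyte markers Nphs1 rose by 0.59, and Wt1 (-0.19) did not pass. None of these 10 markers lay above the median control level of all genes. Their part in the claudin values was not tested.

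**Figure D4:**
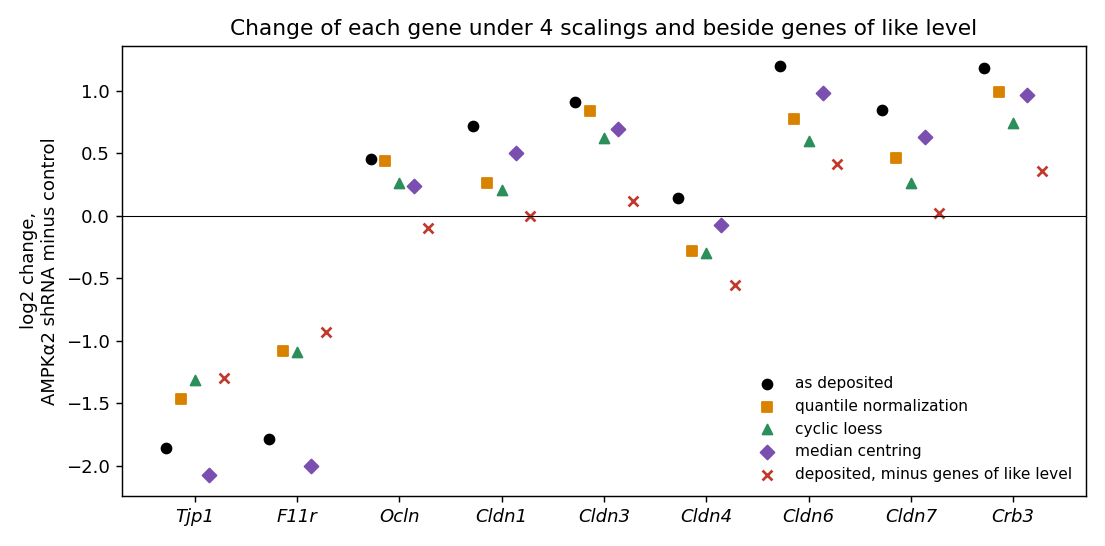
Log2 change (vertical axis, AMPKα2 shRNA minus control) of each of the 9 genes as deposited, after 3 other scalings, and as deposited minus the median of genes of like control level (crosses). Tjp1 and F11r stay well below 0 throughout, and the crosses of Ocln, Cldn1, Cldn3 and Cldn7 lie near 0.

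Upstream sequences of the rising genes are shown because 3 of them share dense E-boxes. Of 2 motifs searched, the first was CAGGTG, on either strand (read as CACCTG on the other), the form of E-box bound by repressors of the SNAIL and ZEB families, which are known to silence junction genes in epithelial cells. These letters, and a count of 3 or more of them, were chosen after the upstream sequences had been seen, so their shares are a description only. The window was the 250 bases before each gene's start in the RefSeq table of build GRCr8, which held 8 of the 9 genes. For Tjp1, Ocln, Cldn6 and Crb3 the table's start is not at the edge of the annotated gene. Cldn7 had 4 matches, Cldn6 and Crb3 had 3 each, Ocln had 2, F11r and Cldn3 had 1 each, and Tjp1 and Cldn1 had 0. Of 33469 windows of this length, 15.9% held at least 1 match and 0.236% held 3 or more. The second motif was the GC box, with the letters GGGCGG on either strand, counted in the same windows. Crb3 had 5 matches, Cldn1 had 2, F11r, Cldn3, Cldn6 and Cldn7 had 1 each and Tjp1 and Ocln had 0, where 30.5% of all windows held at least 1. A match is a run of letters and not a measured site. Cldn7, Cldn6 and Crb3 are printed 5′ to 3′ in the direction of the gene, beside F11r, which fell, with each match in capitals:
Cldn7 (GRCr8, chr10:55188420-55188669, plus strand): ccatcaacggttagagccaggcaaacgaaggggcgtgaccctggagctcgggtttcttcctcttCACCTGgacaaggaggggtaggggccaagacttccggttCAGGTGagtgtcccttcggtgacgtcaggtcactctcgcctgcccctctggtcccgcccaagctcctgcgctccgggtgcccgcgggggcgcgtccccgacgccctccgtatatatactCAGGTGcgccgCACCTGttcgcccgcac
Cldn6 (GRCr8, chr10:13215558-13215807, plus strand): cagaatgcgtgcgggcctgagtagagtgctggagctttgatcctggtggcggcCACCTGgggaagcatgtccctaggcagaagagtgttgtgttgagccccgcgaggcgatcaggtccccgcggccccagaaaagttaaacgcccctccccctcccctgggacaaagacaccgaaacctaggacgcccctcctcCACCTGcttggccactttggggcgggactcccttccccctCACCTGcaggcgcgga
Crb3 (GRCr8, chr9:1987504-1987753, plus strand): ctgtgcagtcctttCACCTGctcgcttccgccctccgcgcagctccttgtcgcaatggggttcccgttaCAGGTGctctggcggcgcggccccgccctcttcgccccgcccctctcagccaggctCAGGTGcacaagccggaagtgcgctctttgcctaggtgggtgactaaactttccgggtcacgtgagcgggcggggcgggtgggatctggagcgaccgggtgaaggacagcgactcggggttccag
F11r (GRCr8, chr13:86405979-86406228, plus strand): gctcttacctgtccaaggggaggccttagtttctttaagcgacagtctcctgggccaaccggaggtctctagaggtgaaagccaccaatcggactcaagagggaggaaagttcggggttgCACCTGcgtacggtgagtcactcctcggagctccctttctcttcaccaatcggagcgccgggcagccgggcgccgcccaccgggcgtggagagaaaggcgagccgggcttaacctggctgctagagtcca

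In Cldn7 a pair of matches began close before the start, at bases -28 and -17, and in Cldn6 matches began at -56 and -16. Those of Crb3 lay farther out, at -236, -181 and -125, and the match of F11r lay at -130. Among 11733 genes of the array with such a window, 36 (0.307%) held 3 or more matches, and these 3 genes are among them. Of the 36, 25 rose and 5 fell, with a median change of 0.64 and a median control level of 5.33. The share that rose was 69.4% of these 36, the 3 genes included, against 42.2% of all 11733. Of the 1851 genes with 1 or more matches 51.7% rose, with a median change of 0.27 and a median control level of 6.40. Of the 9882 genes with 0 matches 40.4% rose, and they had a median change of -0.047 and a median control level of 7.24. The 36 genes thus had lower control levels, where most genes rose. In the control range of the 5 claudins and Crb3, which holds the median level of the 36, 87.6% of genes rose. Among all genes with a control level from 5 to 6, the median change was 0.81, beside 0.64 for the 36. The part of the level in the changes of the 36 genes was not tested.

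Other genes of junctions and polarity were taken from a list of 79, of which 65 were measured. Of these, 26 rose, 35 fell and 4 did not pass, beside 43.6% and 41.5% of all genes, with a median change of -0.35 (0.048 over all genes). In the quantile values 24 rose and 28 fell, and in the loess values 23 and 30. In all 4 scalings 16 rose and 27 fell, and the share of all genes that did so was not counted.

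The claudin group of the list held 12 measured genes other than the 5 above, among them Cldnd1, a gene named for a claudin domain and not a claudin itself. Of the 12, 9 rose, 1 fell and 2 missed the threshold, where 43.6% of all genes rose. Most of the 12 had low control levels, and 87.6% of genes rose in the control range of the 5 claudins and Crb3. The median of the 12 was 0.73, which was 0.40 in the quantile and 0.37 in the loess values. From like-level genes the median was 0.17, with 8 of the 12 above them and 4 below. Cldn16, a claudin of the thick ascending limb that carries magnesium, rose by 1.01 (SE 0.09) to 5.49 on the AMPKα2 shRNA arrays, against 4.48 on the control arrays. Cldn14, of the same segment, rose by 0.95 (SE 0.12). Cldn12, which read 8.43 on the control arrays, was the gene that fell, by 0.35, and it rose in the quantile (0.34) and loess (0.32) values.

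Among 9 other membrane proteins of the junction 6 rose and 3 fell, beside 43.6% and 41.5% of all genes. The median was 0.58 (-0.078 from like-level genes). In both the quantile and the loess values 3 rose and 3 fell, with medians of 0.15 and 0.13. Cxadr, which encodes the coxsackie and adenovirus receptor, an adhesion molecule of the junction, had the largest change of the list as deposited. It had log2 values of 4.70, 4.99 and 5.08 on the AMPKα2 shRNA arrays, against 7.74, 7.80 and 7.76 on the control arrays. The groups were nearly 3 log2 units apart, and the arrays within each lay close together. The AMPKα2 shRNA values lie where the array may hold little signal, near the mean of 5.07 that the leukocyte gene Ptprc had on the same arrays, so no fold is given. Cxadr fell by 2.85 (SE 0.11, limma, adjusted p = 4.59e-09) and stood at -2.34 from like-level genes. Its changes were -2.83 in the quantile and -3.02 in the loess values. Lsr, which encodes angulin-1 of contacts between 3 cells, fell by 0.96, with changes of -0.24 and -0.27 in those values, which passed. Of the JAM family, Jam3 fell as F11r did, by 0.94, with changes of -0.31 in the quantile and -0.33 in the loess values, which passed. Jam2 (JAM-B) went the other way from F11r. It had 7.50, 7.78 and 7.63 on the AMPKα2 shRNA arrays, against 6.27, 6.34 and 6.17 on the control arrays, and rose by 1.38 (SE 0.10, limma, adjusted p = 2.76e-07). The further 4 probe sets of Jam2 rose as well, by 0.51 to 1.09. Ildr2, an angulin, rose by 1.01, while of its further probe sets 1, with a control level of 3.00 and a change of 0.15, did not pass.

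The cytoplasmic plaque holds the scaffolds and signalling proteins beneath the membrane. Of 18 measured plaque genes 15 fell, 2 rose and 1 missed the threshold, with a median of -0.79, where 41.5% of all genes fell. Most of the 18 had control levels above 7. Among all genes with a control level from 8 to 9 the median change was -0.74, and 14.8% had a positive change. From like-level genes the median was -0.25, with 12 of the 18 below them and 6 above, and in the loess values 10 fell and 4 rose, with a median of -0.29. Mpdz, which encodes the multi-PDZ scaffold MUPP1, had 6.42, 6.80 and 6.29 on the AMPKα2 shRNA arrays, against 8.79, 8.78 and 8.80 on the control arrays. Mpdz fell by 2.29 (SE 0.12, limma, adjusted p = 4.52e-08), at -1.44 from like-level genes. Afdn, which encodes afadin, a link between nectins and actin, fell by 1.58 at its main probe set, whereas its other probe sets, at 0.038 and 0.035, did not pass. Arhgef11 rose by 0.37, and 0.15 in the centred values did not pass. Tjp3 (ZO-3), a relative of Tjp1 that read 4.16 on the control arrays, rose by 0.26, and its changes of -0.20 in the quantile and -0.23 in the loess values passed in the other direction.

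The Par complex marks the apical side of the junction. In the Par group of the list, 8 of 10 genes fell, 1 rose and 1 missed the threshold, where 41.5% of all genes fell. The median was -1.06 (-0.39 from like-level genes). The group also holds the kinase genes Mark1, Mark2 and Mark3, whose products are not part of that apical complex. They changed by -0.56, -1.22 and -1.15, so the count and median do not describe the apical complex alone. In the loess values 8 fell and 1 rose, with a median of -0.46. Pard3 encodes Par3, the scaffold that JAM-A recruits. It had 5.89, 6.46 and 6.24 on the AMPKα2 shRNA arrays, against 8.10, 8.10 and 8.08 on the control arrays. Pard3 fell by 1.90 (SE 0.13, limma, adjusted p = 2.21e-07), at -1.27 from like-level genes. Further probe sets of Pard3 had changes of -1.66 and -1.29, and 1 that read low, at 4.11 on the control arrays, rose by 0.38. Prkci, the gene of the atypical kinase PKCι that binds Par6, fell by 1.63 at its main probe set, while another probe set rose by 0.96 and the third, at -0.32, did not pass. Pard6a, which encodes the partner Par6α, rose by 0.85 (SE 0.11).

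In the Crumbs complex 5 of 8 measured genes rose and 3 fell, beside 43.6% and 41.5% of all genes. The median was 0.34 (-0.10 from like-level genes). In the centred values 3 rose and 3 fell. Lin7c, which encodes a small PDZ protein bound to Pals1, had 8.78, 8.72 and 8.71 on the AMPKα2 shRNA arrays, against 7.52, 7.57 and 7.50 on the control arrays. Lin7c rose by 1.20 (SE 0.08, limma, adjusted p = 1.67e-07) at a level where most genes fell, 1.60 above like-level genes. Its relative Lin7b rose by 0.79, which was -0.034 from like-level genes, and by 0.38 in the quantile and 0.20 in the loess values. Crb2, the Crumbs gene known from podocytes and retina, went the other way from Crb3. It had 6.71, 6.82 and 6.63 on the AMPKα2 shRNA arrays, against 8.26, 8.19 and 8.30 on the control arrays, and fell by 1.53 (SE 0.09, limma, adjusted p = 6.18e-08), at -0.91 from like-level genes. Epb41l5, which encodes a Crumbs-binding protein, fell by 0.76.

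The Scribble complex, which marks the basolateral side, had 5 genes lower and 3 higher of 8, beside 41.5% and 43.6% of all genes. Its median was -0.97 (-0.27 from like-level genes). The median was -0.22 in the quantile values, with 4 lower and 2 higher, and -0.25 in the loess values, with 5 lower and 2 higher. Llgl2 and Llgl1, which encode the lethal giant larvae proteins, changed by -1.36 (SE 0.10) and -1.34 (SE 0.08), both of which passed. In the loess values they had -1.13 and -0.77. Dlg3 and Dlg4, which encode scaffolds of the discs large family, rose by 0.99 (SE 0.14) and 0.86 (SE 0.10), and all their other probe sets rose.

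**Figure D5:**
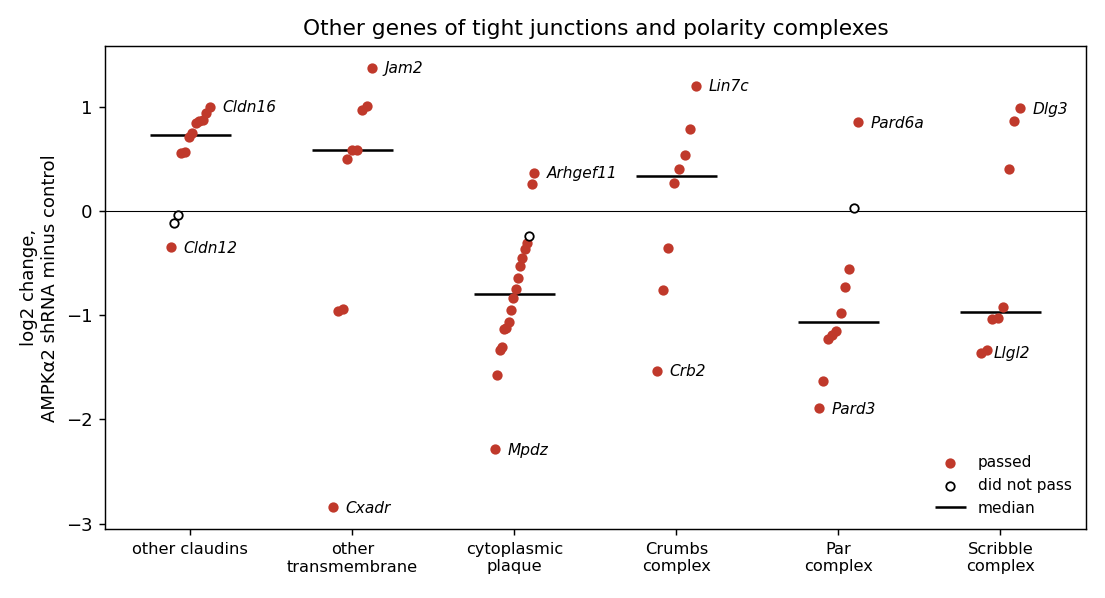
Log2 change (vertical axis, AMPKα2 shRNA minus control) of the 65 measured other genes of tight junctions and polarity complexes, by group, as deposited. Filled points passed the test (limma, adjusted p under 0.05), open points did not, and black lines are medians. The other claudins lie mostly above 0, and the plaque, Par and Scribble genes mostly below it.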

How the data were processed

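Log2 expression per probe set and array was deposited by the authors. Background correction, summarisation and scaling are not given in the sources used here, and the files give no detection calls. Per the labels' protocols, biotinylated cRNA came from total RNA. Of 31099 probe sets, 57 array controls were left out. Names came from the platform annotation, of which 20826 probe sets had 1 gene, 436 several and 9780 none. RefSeq names changed 0 symbols. The 2 groups were tested using limma 3.58.1 (R 4.3.3; lmFit, eBayes, 2-sided), without covariates or a level filter, with Benjamini-Hochberg adjustment over 14217 genes, or over 31042 probe sets for further probe sets. The steps were tested on simulated data. The members and lists were chosen with earlier results of these data known. Named genes were the members, Prkaa2, the up to 2 largest rises and 2 largest falls that passed in each pathway group, and the 3 genes most like the member with the largest change. Markers, Cldnd1, Jam3 and the Mark genes were named outside this rule. Alternatives were other scalings, filters, probe set rules, variance models, weights, a floor, a replicate block, a threshold of 0.01, other windows and leaving out each array. Same-numbered arrays of the groups had correlated deviations of -0.021, 0.014 and -0.098, so the numbers were not taken as pairs.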

Additional observations from a re-analysis of the deposited data

How the results depend on the processing

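The number of arrays limits precision, and signal over background is not known, so values under about 5 may hold little signal. Of 9 genes, 8 passed (6 higher, 2 lower) with the intensity trend, robust eBayes, array weights, the replicate block and a threshold of 0.01, and without any single array. Leaving out the lowest 25% of genes kept 5 members, and all 5 passed, 3 of them higher. Over all genes 9074 of 10662 passed, 3317 of them higher, and of 49 other junction genes 13 were higher. Leaving out the lowest 50% kept 2 members, and each passed, 0 of them higher. Over all genes 6023 of 7108 passed (1188 higher), and 36 of 39 other junction genes passed (6 higher). These filters remove low genes by construction. The median change of the members, 0.72, was 0.44 with quantile normalization, 0.26 with cyclic loess, 0.50 with median centring, 0.46 and -1.82 without the lowest 25% and 50%, and 0.56 with the mean of probe sets. Its difference from genes of like level was -1.12 without the lowest 50%. With the replicate number as a block, 12039 genes and 8 members passed, and no member's call changed.

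Results that turned were Ocln with the mean of probe sets (-0.18) and the most variable probe set (-0.81), the lowest Crb3 probe set after quantile normalization (-0.092) and cyclic loess (-0.11), Cldn12 after quantile normalization (0.34) and cyclic loess (0.32), and Tjp3 after quantile normalization (-0.20) and cyclic loess (-0.23). Ocln did not pass with a floor of 4 (adjusted p = 0.0552). Prkaa2 passed after median centring (-0.42), without the lowest 25% of genes, with the mean of probe sets and without AMPKα2 shRNA replicate 2 (-0.27). For Ocln the probe sets themselves oppose each other, and for the rest the cause was not tested.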
